A study of Rattus norvegicus with 6 samples.

Results

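Desert hedgehog and PDGF-A are growth signals that Sertoli cells send to the interstitium of the testis. Their ligands, receptors and effectors were followed here in whole testis RNA of diabetic and non-diabetic rats. The 9 genes were taken by their symbols, as a list of the Sertoli ligands Dhh and Pdgfa, the receptors Ptch1, Smo and Pdgfra, the transcription factors Gli1, Gli2 and Gli3, and the inhibitor Hhip. Each of the 9 symbols labels a single row among the 35291 genes of the deposited table.

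The 6 samples were testicular tissue of Sprague-Dawley rats, an outbred strain, 3 diabetic and 3 non-diabetic. The diabetic rats had eaten a high-fat diet before a single injection of streptozotocin (STZ) at 35 mg/kg, a toxin of pancreatic beta cells, and testes were taken after 8 weeks. The non-diabetic rats, called controls here, had received citrate buffer, and because their diet is not given in the sources used here, diet and STZ cannot be told apart. The rats were adult males, with no age in weeks in the sources used here, and each numbered sample was taken as 1 rat, which the labels do not state, so that the p-values measure only the spread between these samples. The values are FPKM, in which the fragments of a transcript are scaled to its length and to the size of the library, so that levels can be compared between genes.

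In the Hedgehog pathway, the ligand binds the membrane protein Patched 1 (PTCH1) and thereby releases Smoothened (SMO), which lets the GLI transcription factors switch on their targets. GLI1 is an activator and itself a target, GLI2 mostly activates, and GLI3 mostly represses when the signal is absent. Ptch1 and Hhip are targets as well, and both of their proteins bind the ligand and restrain the signal. In the testis, Sertoli cells make Desert hedgehog, and Leydig and peritubular cells and their precursors respond to it. PDGF-A, a second Sertoli ligand, acts on the receptor PDGFRA of interstitial cells, and both signals are known to be needed for the formation of Leydig cells.

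One short sequence was looked for near the gene starts. GLI proteins bind the letters GACCACCCA, and these letters or their reverse complement TGGGTGGTC were searched on both strands in the 300 bases from 250 before to 50 after each gene start (RefSeq, build GRCr8). A promoter was held for 8 of the 9 genes, with Gli1 missing. The letters were found in that of Ptch1 alone among the 8 and in 129 of 33469 promoters, or 0.385%, and in none of the 34 other Hedgehog, PDGF and GLI target genes with a promoter. The match in Ptch1 is shown with the matching letters in capitals, on the plus strand at chr17:1555389-1555418, where its first capital lies 172 bases before the gene start.
Ptch1: gttgcctaccTGGGTGGTCtctctactttg
The match is a description of these letters, and binding was not measured.

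As a check of the tissue, the spermatid gene Prm1, which packs sperm DNA, was between 3227 and 4072 FPKM in the 6 rats, and the Sertoli junction gene Cldn11 between 30.9 and 37.0 FPKM. The totals of the FPKM columns were between 453304 and 478211, the number of reads is unknown, and the log2 values of samples correlated across genes at 0.958 to 0.965 within groups and 0.957 to 0.966 between them. By these values no library stood apart from the others.

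Of the 9 genes, Pdgfra was the only one whose diabetic and non-diabetic values did not overlap, and it was lower in all 3 diabetic rats. Groups that did not overlap were found for 13.0% of the 20338 genes tested and for 11.5% of all genes above 0 in at least 1 rat. Values were tested with limma on log2(FPKM + 0.1) where the mean over the rats reached 0.5 FPKM, a filter that Dhh, Ptch1, Smo and Pdgfra passed. With p-values adjusted over every gene in the fit (Benjamini-Hochberg), 0 of these 4 genes fell below 0.05, against 0.0344% of all genes tested. Before adjustment, limma gave 1 of the 4 genes, Pdgfra, a p-value under 0.05, against 7.46% of all genes tested. A criterion of fold and p-value, of the kind the study used, asks for a log2 fold change of 1 or more in size and an unadjusted p-value under 0.05, and was met by 0 of the 4 genes and by 1.24% of all genes tested. The other 5 genes lay under the filter and are described by their values.

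**Figure D1:**
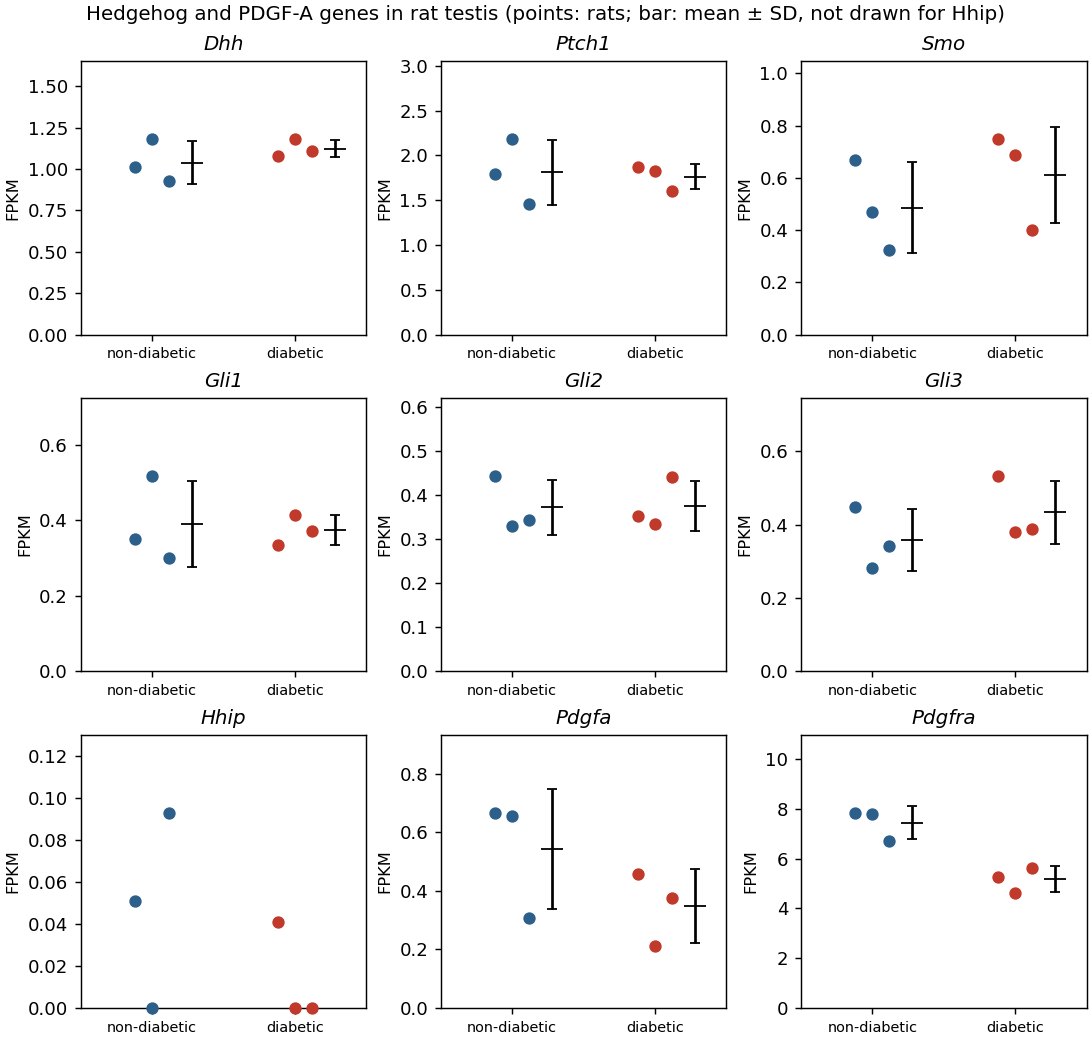
FPKM (linear axes from 0) of the 9 genes in each of 3 non-diabetic (blue) and 3 diabetic (red) rats, with the mean ± SD as a black bar, left out for Hhip, which was listed at 0 in 3 rats. Only in the panel of Pdgfra do the groups separate, with the diabetic rats at 4.63 to 5.64 FPKM and the non-diabetic rats at 6.71 to 7.85 FPKM.

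The ligand gene Dhh measured 1.08, 1.18 and 1.11 FPKM in diabetic rats 1 to 3, against 1.01, 1.18 and 0.926 FPKM in controls 1 to 3. The groups overlapped, and the highest rat of each was at the same level of 1.18 FPKM. The means were 1.12 ± 0.0547 and 1.04 ± 0.131 FPKM (SD, n = 3 each). For Dhh the log2 fold change came to 0.11 (standard error 0.20), with a 95% interval from -0.36 to 0.58 (adjusted p = 0.947 from limma). Dhh therefore showed no difference beyond the spread between rats, and the interval includes changes of moderate size in either direction. The paralogs were nearly silent. Shh was listed at 0 in 5 of the 6 rats and at 0.0211 FPKM in diabetic rat 1, and Ihh was between 0.0248 and 0.102 FPKM, so that Dhh was the Hedgehog ligand of highest level in every rat.

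Ptch1, the receptor that is also a target, measured 1.87, 1.82 and 1.60 FPKM in diabetic rats 1 to 3, against 1.79, 2.18 and 1.46 FPKM in controls 1 to 3. All 3 diabetic values lay inside the range of the non-diabetic rats. The means were 1.76 ± 0.143 and 1.81 ± 0.360 FPKM (SD, n = 3 each), and the log2 fold change came to -0.025, with a 95% interval from -0.47 to 0.42 (adjusted p = 0.992 from limma). Its sign turned under median-ratio scaling between samples, to 0.0033, and when diabetic rat 3 or control 2 was left out. Within each rat, Ptch1 stood above Dhh by 1.44 to 1.74 times in the diabetic and 1.58 to 1.85 times in the non-diabetic rats, ranges that overlapped.

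Smo, which carries the signal into the cell, varied more than Dhh and Ptch1. It measured 0.748, 0.686 and 0.402 FPKM in diabetic rats 1 to 3, against 0.667, 0.470 and 0.322 FPKM in controls 1 to 3. The groups overlapped widely. For Smo the log2 fold change came to 0.29 (standard error 0.38), with an interval from -0.60 to 1.18 (adjusted p = 0.924 from limma), so no difference in Smo was detectable with these rats.

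The 3 GLI genes lay close together at a low level. Gli1, the usual readout of Hedgehog activity, measured 0.335, 0.415 and 0.373 FPKM in diabetic rats 1 to 3, against 0.350, 0.518 and 0.301 FPKM in controls 1 to 3. The diabetic values of Gli1 lay between those of the non-diabetic rats, with means of 0.375 ± 0.0399 and 0.390 ± 0.114 FPKM (SD, n = 3 each). Gli2 measured 0.352, 0.334 and 0.441 FPKM in diabetic rats 1 to 3, against 0.444, 0.331 and 0.343 FPKM in controls 1 to 3. Gli3 was at 0.533, 0.381 and 0.388 FPKM against 0.449, 0.283 and 0.341 FPKM. Both genes had overlapping groups, and diabetic rat 1 was the highest of all rats for Gli3. In a fit without the filter on low genes, the log2 fold changes were -0.024 for Gli1, 0.011 for Gli2 and 0.23 for Gli3, with adjusted p-values from limma of 0.994, 0.997 and 0.902.

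The summed level of the 3 GLI genes was between 1.13 and 1.22 FPKM in the diabetic and between 0.985 and 1.24 FPKM in the non-diabetic rats. Of that sum, Gli1 made up 27.5% to 36.7% in the diabetic and 28.2% to 45.8% in the non-diabetic rats. Gli3 made up 32.3% to 43.7% and 25.0% to 36.1%. The shares of Gli1 and Gli3 RNA thus overlapped between the groups, and the amounts of activator and repressor protein were not measured. These and all other ratios within a rat given here were chosen after the values were seen.

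Hhip, whose protein binds and sequesters the ligand, was at the edge of detection. It was listed at 0.0411 FPKM in diabetic rat 1 and at 0 in diabetic rats 2 and 3. In the non-diabetic rats it was listed at 0.0509, 0 and 0.0930 FPKM. No fold change is given for a gene listed at 0 in 3 of 6 rats.

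Pdgfa, the ligand of PDGFRA, measured 0.457, 0.210 and 0.375 FPKM in diabetic rats 1 to 3, against 0.667, 0.654 and 0.307 FPKM in controls 1 to 3. Of the non-diabetic rats, 2 stood above every diabetic rat, and the third lay among them. The means were 0.347 ± 0.126 and 0.543 ± 0.204 FPKM (SD, n = 3 each). Without the filter, the log2 fold change of Pdgfa was -0.51 with a standard error of 0.39 and an interval from -1.43 to 0.41 (adjusted p = 0.873 from limma), so the difference was within the spread between rats. The difference of mean log2 values for Pdgfa was -0.26 without diabetic replicate 2 and -0.81 without non-diabetic replicate 3, and -0.19 with a pseudocount of 1.

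Pdgfra, the receptor of PDGF-A on interstitial cells, measured 5.26, 4.63 and 5.64 FPKM in diabetic rats 1 to 3, against 7.85, 7.80 and 6.71 FPKM in controls 1 to 3. The highest diabetic rat lay below the lowest non-diabetic rat. The means were 5.18 ± 0.508 and 7.45 ± 0.642 FPKM (SD, n = 3 each), a ratio of 0.694. The log2 fold change of Pdgfra was -0.52 with a standard error of 0.11 and a 95% interval from -0.79 to -0.25. Its unadjusted p-value from limma was 0.00253 and its adjusted p-value 0.353, so it did not pass the adjusted threshold. An exact permutation test, two-sided, gave 0.1, the smallest p-value that this design allows. Dropping any 1 rat left the log2 fold change of Pdgfra between -0.59 and -0.44, with adjusted p-values between 0.345 and 0.773 from limma.

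**Figure D2:**
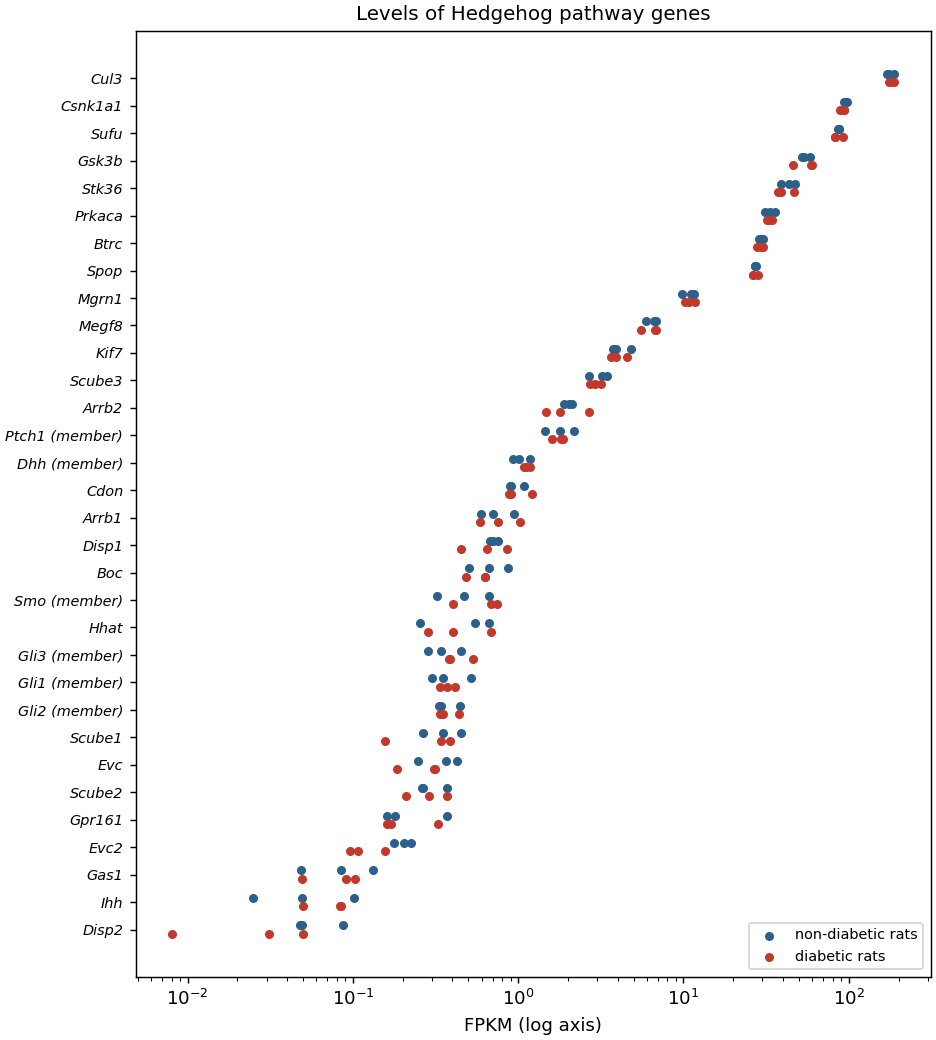
FPKM on a log axis of the reported Hedgehog pathway genes above 0 in all 6 rats, ordered by mean, with 3 non-diabetic (blue) and 3 diabetic (red) rats a gene. The intracellular regulators Cul3, Csnk1a1 and Sufu stand at the top with means of 181, 93.8 and 86.4 FPKM, while Dhh, Ptch1, Smo and the GLI genes lie between 0.283 and 2.18 FPKM.

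In order of their levels over the 6 rats, Pdgfra was highest with a mean of 6.31 FPKM, followed by Ptch1 with 1.79 FPKM and Dhh with 1.08 FPKM. The ranges of these 3 genes did not overlap with their neighbours in the order, and each stood above the next in 6 of 6 rats. Smo, Pdgfa, Gli3, Gli1 and Gli2 followed with means of 0.549, 0.445, 0.396, 0.382 and 0.374 FPKM, and in this stretch every neighbouring pair had overlapping ranges. Hhip came last with a highest value of 0.0930 FPKM, below the lowest value of Gli2, 0.331 FPKM. Among all genes of the table, the mean of Pdgfra was at the 75.5th percentile and that of Dhh at the 50.9th percentile. The FPKM of Ptch1, Smo, Gli3 and Pdgfa carry over 6 decimals in the table, which adding up transcripts would give, while those of the other 5 genes do not.

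The other genes of the Hedgehog pathway were taken from a list of 28 genes, of which 18 passed the filter on low levels. With limma, 0 of the 18 genes had an adjusted p-value below 0.05 and 0 had an unadjusted p-value below 0.05. Of all genes tested, the shares were 0.0344% and 7.46%. Their log2 fold changes were between -0.18 and 0.07, 5 of them positive and 13 negative. The median was -0.022, and the median of all genes tested was -0.021. By their smallest p-values, the kinase genes Csnk1a1 and Stk36 came first. Csnk1a1, which encodes casein kinase 1 alpha, measured 88.6, 93.6 and 93.5 FPKM in diabetic rats 1 to 3, against 97.8, 95.5 and 93.9 FPKM in controls 1 to 3. These groups did not overlap, yet the log2 fold change of Csnk1a1 was -0.060 (adjusted p = 0.872 from limma). Stk36, which encodes the Fused kinase homolog, differed by -0.082 on the log2 scale (adjusted p = 0.924 from limma).

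By their roles, the genes of this list stood at very different levels. Sufu, whose protein holds GLI factors in the cytoplasm, was between 82.6 and 92.3 FPKM. This was 67.6 to 88.1 times the summed level of the 3 GLI genes in the same rat. These are RNA levels of whole testis, and whether the same cells held Sufu and the GLI genes was not measured. The gene of the ubiquitin ligase adaptor Spop was at 27.0 ± 1.06 and 27.2 ± 0.295 FPKM in the diabetic and non-diabetic rats (SD, n = 3 each). Of the co-receptors, Cdon was at a mean of 0.981 FPKM and Boc at 0.629 FPKM, and Gas1 reached at most 0.132 FPKM. Evc2, a ciliary partner of SMO, was chosen after its values were seen, since its groups did not overlap. It measured 0.0956, 0.107 and 0.156 FPKM in diabetic rats 1 to 3, against 0.203, 0.177 and 0.226 FPKM in controls 1 to 3, under the filter, and without the filter its adjusted p-value from limma was 0.820.

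Of a list of 17 other PDGF pathway genes, 15 passed the filter. With limma, 0 of the 15 genes had an adjusted p-value below 0.05 and 1 had an unadjusted p-value below 0.05. Of all genes tested, the shares were 0.0344% and 7.46%. The median log2 fold change was -0.0066, with 7 positive and 8 negative values. The gene with an unadjusted p-value under 0.05 was Pik3r1, which encodes the p85 alpha regulatory subunit of PI3 kinase, a partner of activated PDGF receptors. Pik3r1 measured 1.76, 2.06 and 2.87 FPKM in diabetic rats 1 to 3, against 3.38, 3.13 and 3.08 FPKM in controls 1 to 3. Its groups did not overlap, as for 13.0% of all genes tested, and diabetic rat 3 stood near the non-diabetic rats. The log2 fold change of Pik3r1 was -0.53 with a standard error of 0.19 (unadjusted p = 0.0264 and adjusted p = 0.613 from limma). When 1 rat was left out, the unadjusted p-value of Pik3r1 from limma ran from 0.00318 to 0.0813, and it was above 0.05 without diabetic replicate 1 or 2 or non-diabetic replicate 1 or 2. Without diabetic replicate 1, Plat was the single PDGF gene with an unadjusted p-value under 0.05.

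Among the relatives of PDGF-A and PDGFRA, the second receptor gene Pdgfrb measured 0.919, 1.35 and 0.777 FPKM in diabetic rats 1 to 3, against 1.18, 0.936 and 0.994 FPKM in controls 1 to 3. Pdgfrb overlapped fully, with a log2 fold change of -0.054 and an interval that includes 0 (adjusted p = 0.982 from limma). Pdgfra exceeded Pdgfrb by 3.44 to 7.25 times in the diabetic and 6.67 to 8.33 times in the non-diabetic rats. These ranges overlapped only between 6.67 and 7.25, through diabetic rat 3. A difference in response between the 2 receptors was not tested. The ligand genes Pdgfb and Pdgfc had log2 fold changes of 0.039 and 0.022.

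The ligand gene Pdgfd and the receptor-like gene Pdgfrl lay under the filter and were chosen after their values were seen. Pdgfrl measured 0.315, 0.435 and 0.284 FPKM in diabetic rats 1 to 3, against 0.0755, 0.112 and 0.179 FPKM in controls 1 to 3. It was higher in all 3 diabetic rats, and without the filter its log2 fold change was 1.01 (unadjusted p = 0.0135 and adjusted p = 0.603 from limma). Pdgfd measured 0.342, 0.328 and 0.454 FPKM in diabetic rats 1 to 3, against 0.506, 0.620 and 0.491 FPKM in controls 1 to 3, and was lower in all 3 diabetic rats (unadjusted p = 0.152 and adjusted p = 0.842 from limma without the filter).

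**Figure D3:**
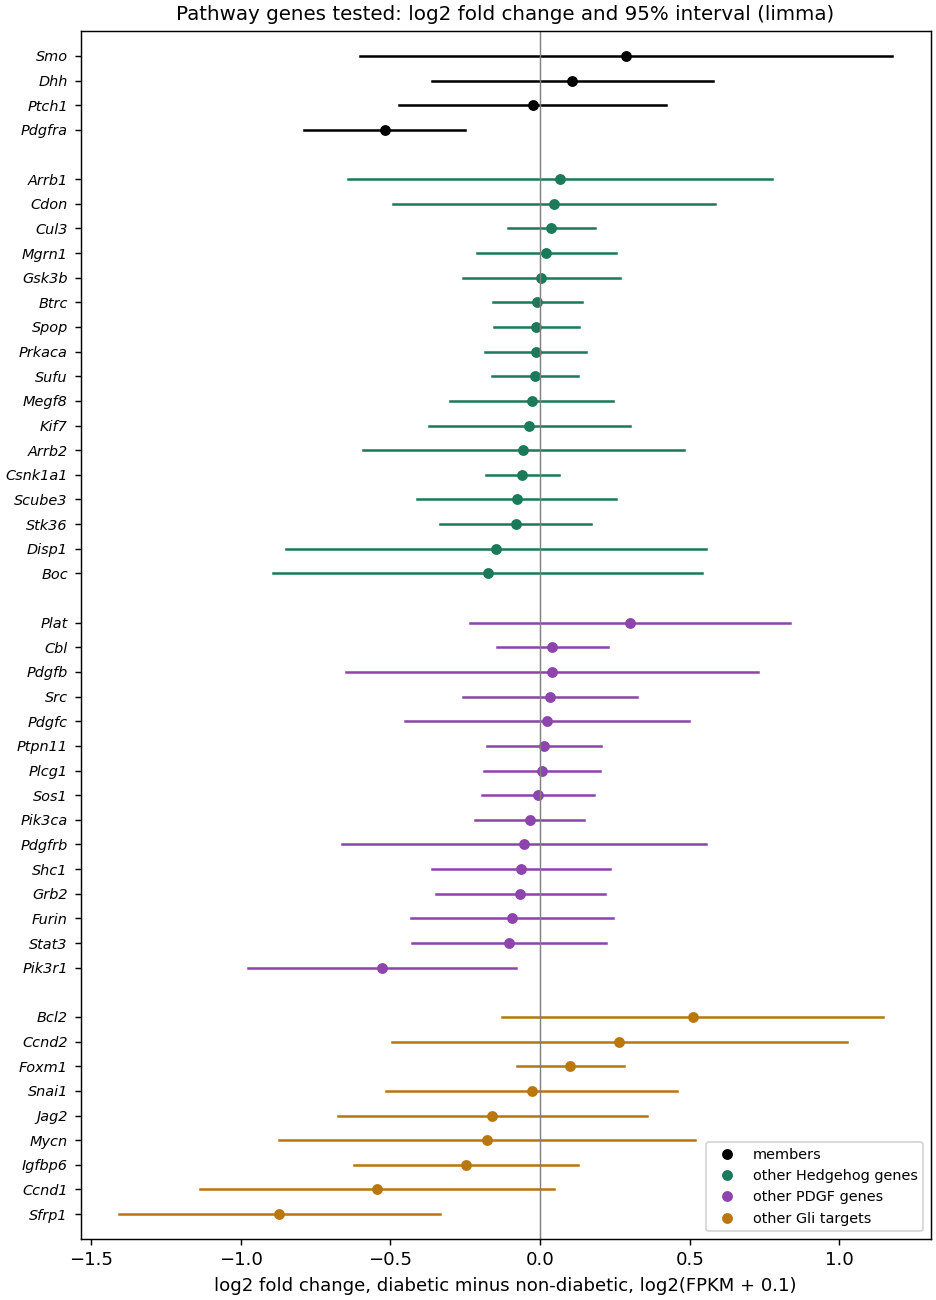
Log2 fold change, diabetic minus non-diabetic, on log2(FPKM + 0.1), with the 95% interval from limma, for the 4 members and, of the other genes tested, 17 of the 18 Hedgehog, 15 PDGF and 9 GLI target genes (n = 3 rats a group). The intervals of Pdgfra, Pik3r1 and Sfrp1 lie below 0 and those of the other genes drawn include 0, before any adjustment for the number of genes.

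Known GLI targets other than the 9 genes were taken from a list of 13 genes, of which 12 have a row and 9 passed the filter. With limma, 0 of the 9 genes had an adjusted p-value below 0.05 and 1 had an unadjusted p-value below 0.05. Of all genes tested, the shares were 0.0344% and 7.46%. The median log2 fold change was -0.16, with 3 positive and 6 negative values. Sfrp1, which encodes a secreted inhibitor of WNT signalling, measured 0.539, 0.614 and 0.575 FPKM in diabetic rats 1 to 3, against 1.06, 1.28 and 1.07 FPKM in controls 1 to 3. All 3 diabetic rats were well below the non-diabetic rats. The log2 fold change of Sfrp1 was -0.87 with a standard error of 0.23 (unadjusted p = 0.00615 and adjusted p = 0.439 from limma), and it was -0.44 with a pseudocount of 1 in place of 0.1.

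The groups also did not overlap for the cell cycle gene Ccnd1 and the survival gene Bcl2, which were named after their values were seen. Ccnd1, the gene of cyclin D1, measured 0.763, 0.646 and 0.580 FPKM in diabetic rats 1 to 3, against 1.13, 1.11 and 0.814 FPKM in controls 1 to 3 (adjusted p = 0.709 from limma). Bcl2 was at 0.713, 0.917 and 0.726 FPKM against 0.548, 0.570 and 0.445 FPKM (adjusted p = 0.758 from limma). Their unadjusted p-values from limma were 0.0663 and 0.1. Together with Sfrp1, 3 of the 9 targets tested had groups that did not overlap, against 13.0% of all genes tested.

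Because whole testis was sequenced, fewer cells of a type and less RNA per cell cannot be told apart, and markers of the cell types were read beside Pdgfra. Of the 8 Leydig cell markers with a row, all of which passed the filter, 8 had a negative log2 fold change, with a median of -1.25. Of these, 7 had an unadjusted p-value below 0.05, namely Star, Cyp11a1, Cyp17a1, Hsd17b3, Insl3, Lhcgr and Prlr, and 1, Cyp17a1, had an adjusted p-value below 0.05 (0.0415 from limma). Among all genes tested, 7.46% and 0.0344% had such p-values. Their summed level was 32.0 to 61.4 FPKM in the diabetic rats and 90.0 to 124 FPKM in the non-diabetic rats. Nr5a1, the gene of the transcription factor SF-1 that Sertoli cells express too, was the exception, with a log2 fold change of -0.016.

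Of the 10 markers of interstitial stromal and stem Leydig cells, 7 passed the filter, and 7 of 7 had a negative log2 fold change with a median of -0.57. Dcn, Col1a1 and Col3a1, which encode decorin and collagens of the matrix, had unadjusted p-values below 0.05, against 7.46% of all genes tested. The smallest adjusted p-value from limma was 0.0648 for Col3a1. The summed level was 15.5 to 18.3 FPKM in the diabetic rats and 24.0 to 30.5 FPKM in the non-diabetic rats. Nr2f2, a transcription factor of interstitial precursors, measured 1.98, 2.48 and 2.86 FPKM in diabetic rats 1 to 3, against 3.23, 2.91 and 3.13 FPKM in controls 1 to 3. For Nr2f2 the log2 fold change was -0.34 (unadjusted p = 0.0703 and adjusted p = 0.712 from limma). Tcf21, Lifr and Lum had overlapping groups, with unadjusted p-values from limma of 0.571, 0.0867 and 0.246. Nes and Thy1 stayed below 0.5 FPKM in every rat. Pdgfra exceeded Nr2f2 by 1.87 to 2.65 times in the diabetic and 2.15 to 2.68 times in the non-diabetic rats, which overlapped. Against the Leydig marker Cyp11a1, Pdgfra was at 0.409 to 0.811 times in the diabetic and 0.306 to 0.429 times in the non-diabetic rats. These ranges overlapped only between 0.409 and 0.429.

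The 8 macrophage markers also had negative log2 fold changes in 8 of 8 genes, with a median of -0.78. Unadjusted p-values from limma were below 0.05 for Cd68, Csf1r, Ptprc and C1qa, against 7.46% of all genes tested. Their summed level was 27.9 to 33.8 FPKM in the diabetic and 35.1 to 37.4 FPKM in the non-diabetic rats. Mrc1 alone was at 18.5 to 23.5 FPKM and made up most of this sum. The groups of Mrc1 overlapped, with a log2 fold change of -0.064 (unadjusted p = 0.523 from limma). Those of Cd163, Adgre1 and C1qb overlapped as well. For the peritubular and smooth muscle, endothelial and germ cell markers, the summed levels of the groups overlapped, and limma gave 0 of their genes an unadjusted p-value below 0.05. The medians of the log2 fold changes of these lists were -0.13, -0.20 and -0.043. Of the red blood cell markers, Hbb was listed at 0 in 5 of 6 rats and Alas2 had a log2 fold change of -0.051.

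The Sertoli cell markers were read because these cells are a source of Dhh and Pdgfa. Which cells of these testes held the RNA of Dhh and Pdgfa was not measured. Of 10 Sertoli marker genes 9 have a row and 8 passed the filter. Their median on the log2 fold scale was 0.078, with 0 unadjusted p-values below 0.05. Their summed level was 315 to 331 FPKM in the diabetic and 266 to 335 FPKM in the non-diabetic rats. Clu alone was at 210 to 272 FPKM and made up most of this sum. Amh, a marker of immature Sertoli cells, stayed below 0.5 FPKM in every rat. Pdgfra and the summed Leydig, stromal and macrophage markers were all lower in the 3 diabetic rats than in any control, and the part of these cells in the difference of Pdgfra was not tested.

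**Figure D4:**
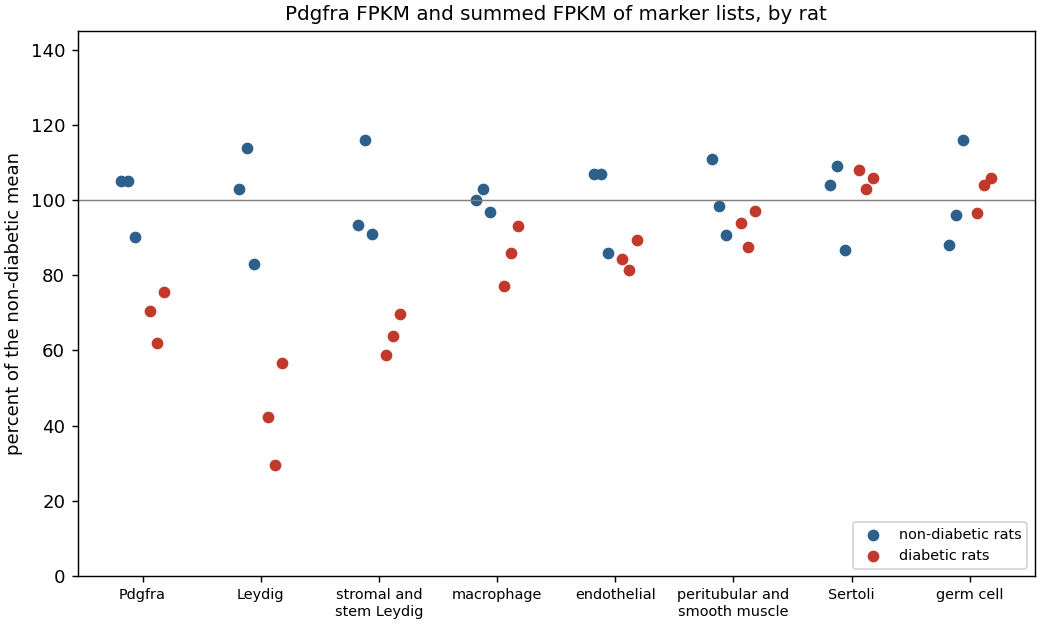
Pdgfra FPKM and the summed FPKM of 7 marker lists in each rat, as a percent of the mean of the 3 non-diabetic rats (blue non-diabetic, red diabetic rats). Pdgfra was at 62.1% to 75.6% in the diabetic rats. The Leydig list was at 29.5% to 56.6%, the stromal list at 58.7% to 69.6% and the macrophage list at 77.1% to 93.1%. By geometric means of FPKM + 0.1, not drawn, these lists were at 33.9% to 59%, 60.3% to 74.8% and 58.1% to 73.1%, so their order depends on the summary. The Sertoli and germ cell lists overlapped with the non-diabetic rats.

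Rat by rat, diabetic rat 2 had the lowest Pdgfra and diabetic rat 3 the highest of the diabetic group. The same rats were lowest and highest in that group for Star, at 7.70 and 22.8 FPKM, and for Cyp11a1, at 5.71 and 13.8 FPKM. This held for Cyp17a1, Hsd17b3 and Prlr as well, but not for the other Leydig markers with a row. Insl3 was lowest in diabetic rat 1 at 1.89 FPKM and Lhcgr in diabetic rat 3 at 2.29 FPKM. Nr5a1 was highest in diabetic rat 2 at 3.87 FPKM. The summed stromal and macrophage markers were lowest in diabetic rat 1. Among the non-diabetic rats, replicate 3 had the lowest Pdgfra, the lowest Pdgfa, Ptch1, Dhh, Smo and Gli1, and the lowest Star and Cyp11a1, at 24.5 and 15.7 FPKM. Gli2, Gli3 and Hhip were lowest in replicate 2, at 0.331, 0.283 and 0 FPKM. Replicate 3 was also lowest for Prlr and Nr5a1, while Cyp17a1, Insl3 and Lhcgr were lowest in replicate 1 and Hsd17b3 in replicate 2.

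The genes whose pattern over the 6 rats was most like that of a member were found by the root mean square difference of centred log2(FPKM + 0.1), among 13749 genes tested that carry a gene symbol other than a locus or clone name. For Pdgfra these were Ctsb, the gene of the lysosomal protease cathepsin B, and Mgat4c, with differences of 0.0361 and 0.0517. Ctsb measured 25.9, 24.6 and 29.2 FPKM in diabetic rats 1 to 3, against 41.2, 41.0 and 34.4 FPKM in controls 1 to 3, with the rats of each group in the same order as for Pdgfra. A difference below 0.1 from Pdgfra was found for 39 genes.

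For Dhh the most similar genes were Umps, which encodes an enzyme of pyrimidine synthesis, and Mapk8ip3, a scaffold of JNK signalling, with differences of 0.0220 and 0.0258. Since Dhh varied little, 1092 genes lay within 0.1 of it. For Gli1 they were Ssr2 and Cd96, with differences of 0.0492 each and 42 genes within 0.1. For Pdgfa they were Slc35e1 and Ddx58, with differences of 0.102 and 0.127 and 0 genes within 0.1. These are likenesses over 6 rats and carry no test.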

How the data were processed

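Testis RNA-Seq of 6 rats was used, with the 3 diabetic and 3 control samples told apart by their titles. The authors checked reads with FastQC, compared them with rRNA by BWA, aligned them with STAR and assembled transcripts with StringTie, and the deposited values are their FPKM per gene. The genome build and tool versions are not given in the sources used here, so coordinates are given only for the RefSeq promoter match (GRCr8), and depth in reads is unknown. The authors screened transcripts with DESeq2, which could not be repeated on FPKM.

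Values were set on the log2(FPKM + 0.1) scale and the 20338 genes averaging 0.5 FPKM or more were fitted with limma 3.58.1 under R 4.3.3 (eBayes, trend on). Tests were two-sided and p-values were adjusted over these genes by Benjamini-Hochberg. Single genes were also put through an exact permutation test (scipy 1.17.1). The fit was tested on simulated data. A symbol with several rows was read from the row of higher mean. Of 130 gene list entries, 6 have no row, and some that enter the counts are not reported here by name. Members and lists were chosen with earlier results of these data known. Besides the 9 members, genes were named by an unadjusted p-value below 0.05 or, in a list with none, as the 2 of smallest p-value. Further genes were named by no fixed rule, for their role, level or kinship to a member, as exceptions, or after their values were seen. For Dhh, Gli1, Pdgfa and Pdgfra the 2 genes of most similar pattern were named. Equal replicate numbers were not taken as pairs. The alternatives were other pseudocounts, filters, scalings and eBayes settings, a replicate block, protein-coding genes only (RefSeq, GRCr8), summed symbols and each rat left out.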

Additional observations from a re-analysis of the deposited data

How the results depend on the processing

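Across 17 alternatives, 0 of the members tested had an adjusted p-value below 0.05 from limma and 1, Pdgfra, had an unadjusted p-value below 0.05 in each. Its log2 fold change stayed between -0.59 and -0.44, and its adjusted p-value ran from 0.127 to 0.773. Ptch1, at -0.025, turned to 0.0033 under median-ratio scaling, and with a rat left out it ran from -0.16 to 0.11, positive without diabetic replicate 3 (0.040) or non-diabetic replicate 2 (0.11). The cause of these and the following shifts was not tested.

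An adjusted p-value below 0.05 was found for 7 genes, against 3 with no filter, 12 when eBayes had no trend, 36 among protein-coding genes only and 15 with equal symbols summed, and 0 to 14 with a rat left out. The 0 belongs to the fit that leaves out non-diabetic replicate 3 (1502 genes at an unadjusted p-value under 0.05), the 14 to that without non-diabetic replicate 1, and 4 were found without diabetic replicate 1. The 253 genes past the criterion of fold and unadjusted p-value became 91 with a pseudocount of 1, 621 without a filter and 85 among protein-coding genes only, and 246 to 335 with a rat left out. Of the other PDGF genes, 1 had an unadjusted p-value below 0.05, 2 without a filter and 0 to 1 with a rat left out, 0 without diabetic replicate 2 or non-diabetic replicate 1 or 2. The gene was Pik3r1 in the main comparison and Plat without diabetic replicate 1, so Pik3r1 was above 0.05 in 4 of 6 such fits. Of the other GLI targets it was 1, 0 under a filter at 1 FPKM, where Sfrp1 was not tested, 3 when eBayes had no trend or with protein-coding genes only, and 1 to 2 with a rat left out, 2 without non-diabetic replicate 3.

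Deviations of same-numbered rats from their group means correlated at 0.106, 0.0153 and 0.0979. Diabetic rats 1 and 3 correlated best with the non-diabetic rat of the same number, and diabetic rat 2 with non-diabetic rat 3 (0.0318). The groups hold different animals, so the numbers were not taken as pairs. With the replicate block, 4 genes had an adjusted p-value below 0.05. The number of reads behind each FPKM is unknown, so what depth limits was not tested.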
